A study of Mus musculus with 5 samples.

Results

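A set of 10 genes, out of 78334 gene identifiers in the deposited count table, is described here across 5 libraries of mouse visceral adipose tissue. They are 4 cystatin genes (Cst3, Cst8, Cst11 and Cst12) and 6 genes of the ribonuclease A family (Rnase4, Rnase9, Rnase10, Rnase11, Rnase12 and Rnase13), taken by symbol. Of these, 8 are known for expression in the male reproductive duct, and Cst3 and Rnase4 are expressed widely. The study compared fat of male C57BL/6 mice, an inbred laboratory strain, in 3 groups. The control group (n = 1 library) was on standard chow with vehicle. The obesity group (n = 2) was fed from 8 weeks of age, for 8 weeks, on chow in which fat supplied 60% of kcal, and then had vehicle. The resveratrol group (n = 2) had the same diet and then the plant polyphenol resveratrol at 2.25 mg/kg through a gastric tube on each of 28 days, from 16 weeks of age. In all 3 groups the mice were 8 weeks old when the diets began and 16 weeks old when the 28 days of dosing by gastric tube began. No genetic change is named for any group, and the labels give 12 weeks in all until collection.

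Cystatins are small secreted or cytosolic proteins that block cysteine proteases such as the cathepsins of the lysosome. Cst3 encodes cystatin C, made by most cells and released into body fluids, whereas Cst8 (CRES), Cst11 (CRES2) and Cst12 (CRES3) belong to a subgroup of reproductive cystatins secreted into the lumen of the epididymis, the duct in which sperm mature. Ribonuclease A proteins are small secreted enzymes that cut RNA. Rnase4 encodes an active member of wide expression that shares its promoter with Ang, the angiogenin gene. The proteins of Rnase9 to Rnase13 lack residues needed for catalysis and are known mainly from the male tract.

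The libraries held 19540961 to 27026597 counts. Levels are in CPM, the usual depth-scaled unit for counts, with library totals adjusted by TMM factors. A value after ± is the SD over the pair of libraries in a group, and control is a single library. Whether each library is from a mouse of its own is not stated, so tests measure the spread between these libraries, which may be technical. Control has no spread of its own. Each SE and p-value against it takes its spread from the obesity and resveratrol pairs. Intervals in brackets are exact 95% intervals that cover counting error alone. A count of 0 is set to a floor of 3 counts, or 0.105 to 0.156 CPM by library, for ratios given as at least a value. The upper limit of the exact 95% interval at a count of 0 is higher, at 0.1285 to 0.1923 CPM, so those ratios are less strict than the intervals. The label of fat tissue was checked on 9 adipocyte genes (Adipoq, Lep, Plin1 and others), which totalled 448 CPM in control, 22000 and 23900 CPM in obesity libraries 1 and 2, and 5670 and 23800 CPM in resveratrol libraries 1 and 2. A list of 7 epididymal genes (Gpx5, Lcn5, Lcn8, Lcn9, Adam7, Adam28 and Ros1) totalled 54000 CPM in control, against 21.1, 0, 3.81 and 0.0777 CPM in those 4 in the same order. A list of 5 smooth muscle genes summed to 39100 CPM in resveratrol library 1 and to 319 to 1000 CPM elsewhere. The control library and resveratrol library 1 thus stood apart from the other 3 on the adipocyte list, and every comparison below rests on 1 or both of them. The obesity pair was not alike on every list. A list of 3 basal epithelium genes (Krt5, Krt14 and Trp63) summed to 171 CPM in control. It summed to 154 and 1.62 CPM in obesity libraries 1 and 2, and to 77.5 and 7.97 CPM in resveratrol libraries 1 and 2.

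The reproductive cystatins were abundant in the control library and nearly absent from the 4 libraries of mice on the high-fat diet. Cst8 (ENSMUSG00000027442), which encodes CRES, a cystatin that lacks the usual site for cysteine proteases and forms part of the amyloid matrix of the epididymal lumen, was at 1557 CPM in the control library (1543 to 1571). It was at 0.156 and 0.0951 CPM in the obesity libraries, which are 3 and 2 counts, and at 0.0908 CPM and a count of 0 in resveratrol libraries 1 and 2. Cst11 (ENSMUSG00000036958), the CRES2 gene, was at 1963 CPM in the control library, at 2 counts in obesity library 1 and at 0 in the other 3. Cst12 (ENSMUSG00000027443), the CRES3 gene, was at 799 CPM in the control library, at 0.625 CPM in obesity library 1, which are 12 counts, and at 0 in the other 3. The control library lay above the 4 others for each of these 3 genes, with no overlap, as for 37.3% of all tested genes. In bulk tissue, fewer cells of a type and less RNA per cell cannot be told apart.

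**Figure D1:**
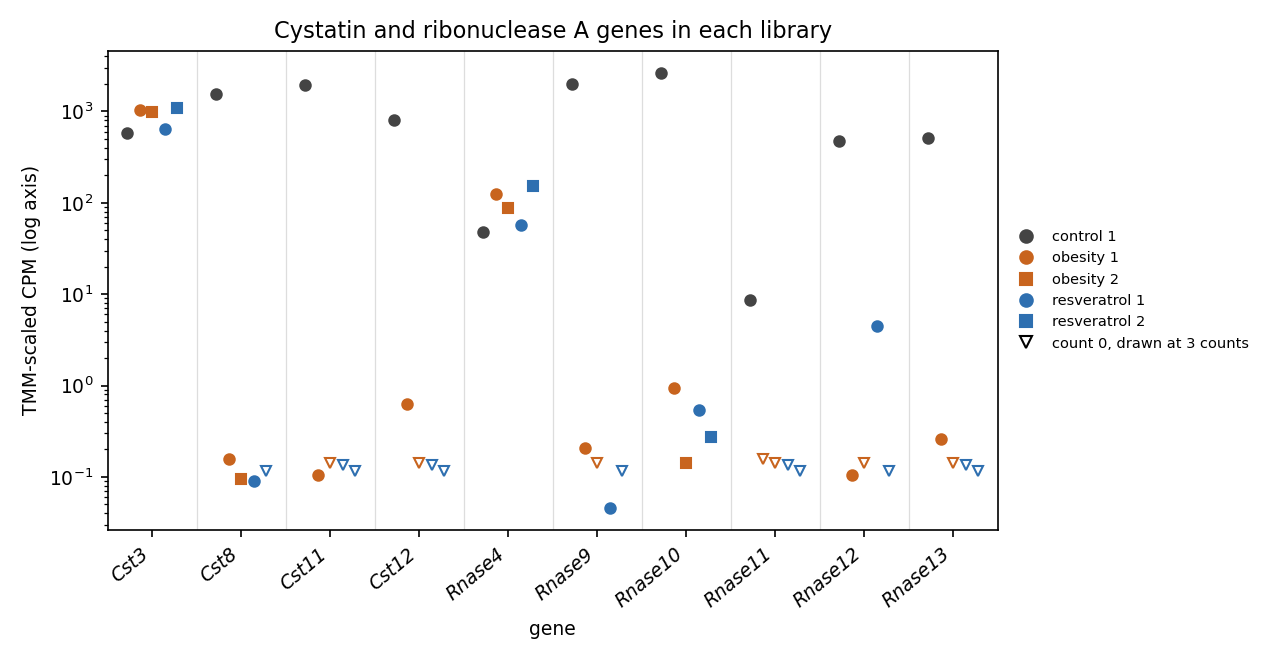
TMM-scaled CPM (log axis) of the 10 genes in each of the 5 libraries. Circles and squares are replicates 1 and 2, and open triangles are counts of 0 drawn at the level of 3 counts. Of the 10, 8 genes are high in the control library alone, with Rnase12 at 4.54 CPM in resveratrol library 1, while Cst3 and Rnase4 are present in all 5.

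The duct ribonuclease genes had the same distribution, with 1 exception. Rnase10 (ENSMUSG00000021872), whose product is secreted by the proximal epididymis and is needed in mice for sperm maturation, had 76649 counts in the control library (2670 CPM). It was the only one of the 8 duct genes with counts in all 5 libraries, at 0.938 and 0.143 CPM in the obesity libraries with 0.545 and 0.272 CPM for the resveratrol pair (18, 3, 12 and 7 counts). Rnase9 (ENSMUSG00000052382), an epididymal family member without catalytic residues, was at 1979 CPM in the control library, at 4 counts in obesity library 1, at 1 count in resveratrol library 1 and at 0 in the remaining pair. Rnase13 (ENSMUSG00000068392), another catalytically silent member, was at 510 CPM in the control library, at 5 counts in obesity library 1 and at 0 in the other 3. Rnase11 (ENSMUSG00000059648), also of the duct, was at 8.54 CPM in the control library (7.50 to 9.67) and at a count of 0 in all 4 others.

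Rnase12 (ENSMUSG00000068407) was the exception. It was at 473.5 CPM in the control library (465.5 to 481.5), at 2 counts in obesity library 1, at 0 in obesity library 2 and resveratrol library 2, and at 4.54 CPM (3.69 to 5.52), or 100 counts, in resveratrol library 1. That count was 0.736% of the control count of Rnase12. For the other 7 duct genes the count in resveratrol library 1 was at most 0.0157% of the control count, the value for Rnase10. A pair of genes listed as markers of the distal duct and vas deferens were high in the same library. Crisp1, which encodes a secreted sperm-coating protein, was at 3393 CPM there and at 2457 CPM in control, and Akr1b7, an aldose reductase gene of the vas deferens, was at 15270 and 8.19 CPM. In the obesity libraries and resveratrol library 2 Crisp1 was at a count of 0 and Akr1b7 was at most at 0.313 CPM. Ros1, from the list of epididymal genes, also had 51 counts in resveratrol library 1, or 0.921% of its control count. It was at a count of 0 in the obesity libraries and resveratrol library 2. For the rest of that list the share in resveratrol library 1 was at most 0.00907%, the value for Adam7. The part of distal duct or other epididymal RNA in the Rnase12 value was not tested.

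Summed over the 8 duct genes, counts made up 1.06% of the control library (exact binomial interval 1.05 to 1.06%). In obesity libraries 1 and 2 the sum was 46 and 5 counts, and in resveratrol libraries 1 and 2 it was 115 and 7 counts, of which Rnase12 gave 100 in resveratrol library 1. To compare levels between genes, CPM was divided by length of exon, taken from the GENCODE M21 gene models, since the annotation used for counting is not given in the sources used here. On this scale of CPM per kilobase the control library was led by Cst11 at 3190 and Cst8 at 1830, followed by Rnase9 at 1660, Rnase10 at 1600 and Cst12 at 1220. Rnase12 was at 704, Rnase13 at 361 and Rnase11 at 12.0 CPM per kilobase. This order comes from 1 library, so it has no spread between replicates.

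The first comparison sets the obesity pair against the chow-fed control. The 8 duct genes were lower in both obesity libraries than in control, and Cst3 and Rnase4 were higher in both. From summed counts, the control level was 12500 times the obesity level for Cst8 (5370 to 38600), 39500 times for Cst11 (10900 to 326000) and 2680 times for Cst12 (1530 to 5180). Among ribonucleases the ratio was 5110 for Rnase10 (3340 to 8260), 19900 for Rnase9 (7770 to 73000), 9520 for Rnase12 (2630 to 78600) and 4100 for Rnase13 (1760 to 12600). Rnase11 was at least 57.1-fold higher in control, against a floor of 3 counts per library. These sizes rest on few counts, most of them in obesity library 1. Against obesity library 1 alone the ratio was 9960 for Cst8 (3410 to 48300), 18800 for Cst11 (5210 to 156000), 1280 for Cst12 (731 to 2470) and 2850 for Rnase10 (1800 to 4800). It was 9490 for Rnase9 (3710 to 34800), 4540 for Rnase12 (1260 to 37500) and 1960 for Rnase13 (839 to 6030). In obesity library 2, by contrast, Cst12, Rnase9 and Rnase13 were at a count of 0, so that control was at least 5601, 13870 and 3576-fold higher, as it was at least 13760-fold for Cst11 and 3319-fold for Rnase12. Against obesity library 2 the ratio was 16400 for Cst8 (4530 to 135000) and 18700 for Rnase10 (6400 to 90800). Against the highest of the 4 other libraries, with that floor, the control level was over 100-fold for 7 of the 8 duct genes, and 0.69% of tested genes had such a difference. Rnase11 was the remaining gene, at 54.6-fold, and Rnase12 was near the limit at 104-fold. Of the 8 duct genes, 6 were tested only because of their control level, so nothing is read from 7 of 8 beside 0.69%.

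In edgeR's quasi-likelihood test, adjusted with Benjamini-Hochberg over 24779 genes, none of the 10 genes passed 0.05, and 0% of all tested genes did. The smallest adjusted p among them was 0.16, for Cst8 (log2 difference -13.55, SE 1.16), Cst11, Rnase9 and Rnase10. Over all genes 6018 had an unadjusted p under 0.05, 12.6% of tested genes higher and 11.7% lower in obesity, and 48.6% had both obesity libraries below control. Of the 8 duct genes, 6 met the filter on low counts only through the control library and so had to differ. Nothing is read from how many of the 8 had a small p or passed, here or under other settings. Rnase10 also met it on the 4 other libraries. Rnase12 met it there through resveratrol library 1 alone, and was not tested when only the obesity and resveratrol groups were fitted. Other settings gave other calls. Without resveratrol library 1, 8 of the 10 passed (Rnase4 and the duct genes except Cst12), where 37.9% of all genes passed, and without resveratrol library 2 the same 8 genes passed with 37.3% of all genes. DESeq2 called 6 of them (Cst8, Cst11, Rnase9, Rnase10, Rnase11 and Rnase12) with 20.2% of the genes it tested. The 7 epididymal marker genes, 54000 CPM in control, were likewise low in the other 4 libraries, with all 7 at a count of 0 in obesity library 2. A list of 7 testis germ cell genes, from a further site in which Cst8 is known, totalled 173 CPM in control, with 0 and 1.19 CPM for the obesity pair. Not all of them were high in control, where Prm1 was at a count of 0 and Acrv1 at 10 counts. The diet and the tissue held by the single control library cannot be told apart.

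**Figure D2:**
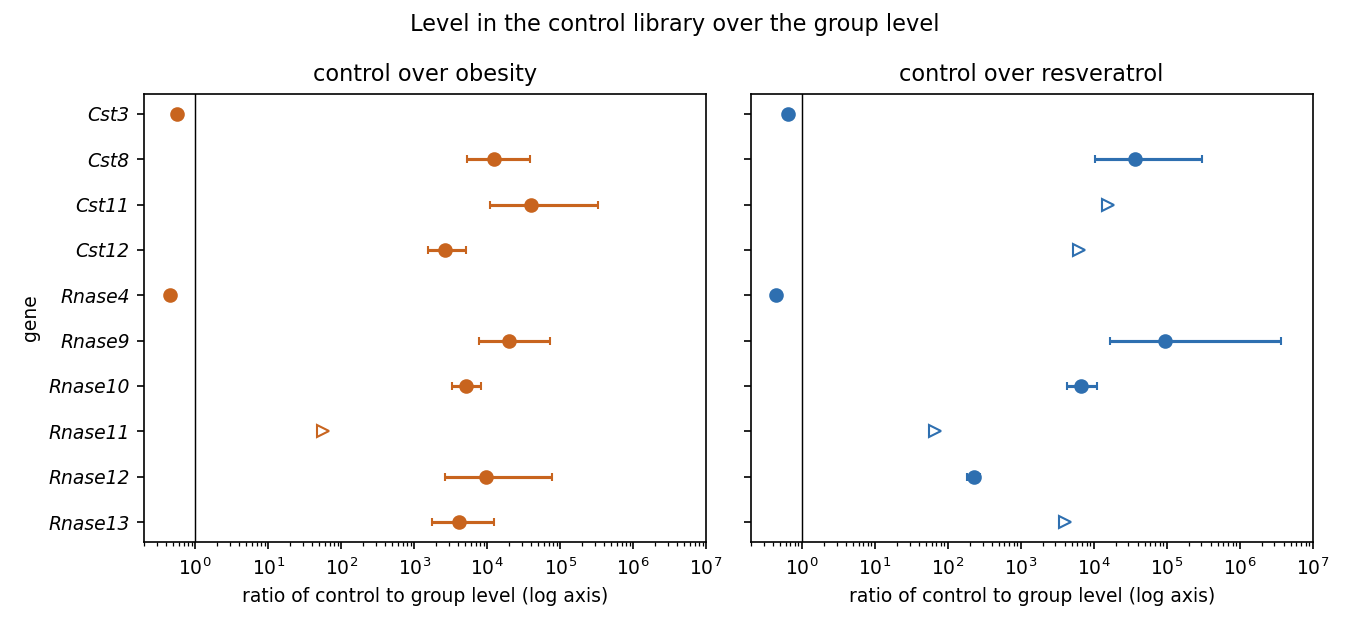
Ratio of the control level to the obesity level (left) and to the resveratrol level (right) for the 10 genes, from summed counts on a log axis. Bars are exact 95% counting intervals, and open triangles are lower bounds for groups at a count of 0. The 8 duct genes lie far above 1, and Cst3 and Rnase4 lie at 0.439 to 0.657.

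Resveratrol libraries against the control library gave the same picture, with the same control library in both comparisons. The control level was 37200 times the resveratrol level for Cst8 (10300 to 307000), 94500 times for Rnase9 (17000 to 3730000) and 6710 times for Rnase10 (4300 to 11200). Cst11, Cst12 and Rnase13 were at a count of 0 in both resveratrol libraries, which puts control at least 15540, 6324 and 4038-fold higher, and Rnase11 at least 67.5-fold. For Rnase12 the ratio was 226 (186 to 278), and resveratrol library 1 held all 100 of the counts. Against resveratrol library 1 alone it was 104 (85.7 to 128), and against resveratrol library 2 control was at least 4061-fold higher. For Cst8 the ratio was 17200 (4750 to 142000) against resveratrol library 1 and at least 13360 against resveratrol library 2, for Rnase9 43600 (7830 to 1720000) and at least 16980, and for Rnase10 4900 (2810 to 9490) and 9820 (4760 to 24400). None of the 10 genes passed in edgeR's test, where 0% of all genes passed, 4596 genes had an unadjusted p under 0.05 (10.5% of tested genes higher, 8.05% lower) and the smallest adjusted p among the 10 was 0.175. Both resveratrol libraries lay below control in 41% of all tested genes. Without resveratrol library 1, 8 of the 10 passed (30.7% of all genes), and without resveratrol library 2, 7 did (17.2% of all genes). DESeq2 called 7 of the 10 (14.5% of the genes it tested), and limma-voom called 2, Cst8 and Cst11 (0.323% of all tested genes). As above, 6 of the 8 duct genes met the filter on low counts only through the control library. Nothing is read from how many were called beside these shares.

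Cst3 and Rnase4 were present in every library and varied little beside the duct genes. Cst3 (ENSMUSG00000027447) reached 576 CPM in control (567 to 585), 1048 and 977 CPM in the obesity pair, and 642 and 1079 CPM in resveratrol libraries 1 and 2. The control library and resveratrol library 1 were the low pair, and the other 3 lay within 977 to 1079 CPM. Against control, obesity averaged 1012 ± 50.1 CPM (SD, n = 2), a log2 difference of 0.81 (SE 0.632, edgeR adjusted p = 0.423). Rnase4 (ENSMUSG00000021876) reached 47.3 CPM in control, 125 and 86.7 in the obesity pair, and 57.0 and 151 in the resveratrol pair. Obesity averaged 106 ± 27.2 CPM (SD, n = 2), with a log2 difference of 1.16 from control (SE 0.724, edgeR adjusted p = 0.34). Resveratrol against control differed by 0.58 for Cst3 (SE 0.625, adjusted p = 0.6) and by 1.14 for Rnase4 (SE 0.723, adjusted p = 0.403) on the log2 scale, also in edgeR's test. Without resveratrol library 2 these differences were 0.18 and 0.29, and without resveratrol library 1 they were 0.93 and 1.7, where Rnase4 passed (edgeR adjusted p = 0.00808, over all alternatives 0.00808 to 0.624). In the main test neither gene passed. With only obesity and control fitted, both did (log2 differences 0.82 for Cst3 and 1.17 for Rnase4), as did 9269 of 23511 genes. Over all tested genes, 40.8% had both obesity libraries above control and 37.7% had both resveratrol libraries above it, as these genes did. The adipocyte genes had their 2 lowest sums in the same libraries as Cst3 and Rnase4, and their part in these values was not tested.

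**Figure D3:**
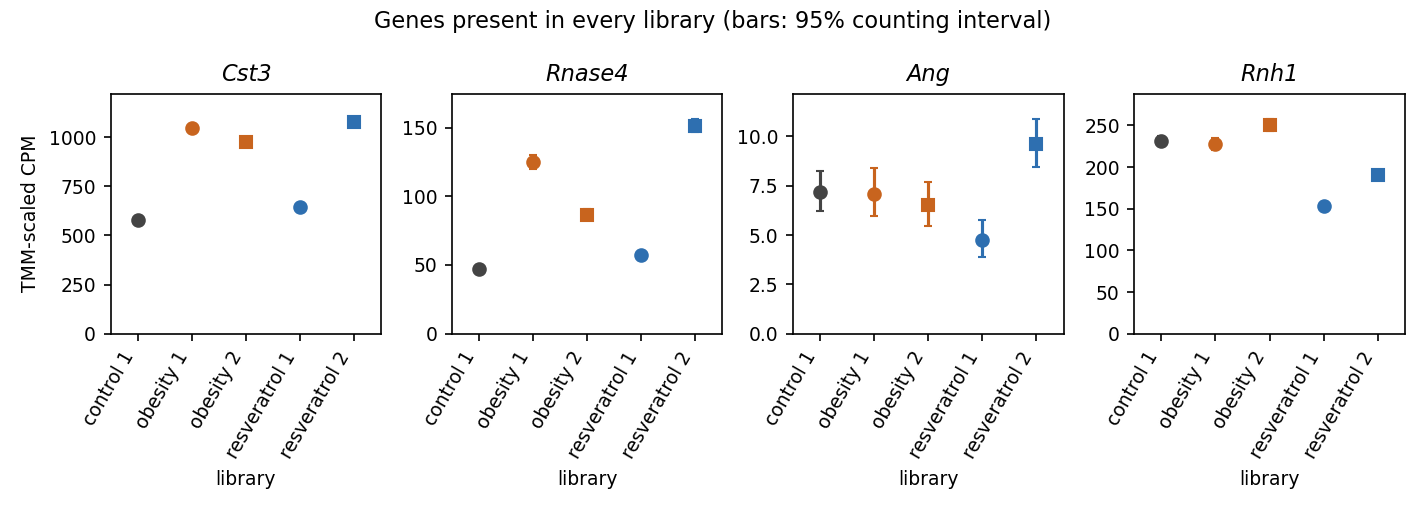
TMM-scaled CPM of Cst3, Rnase4, Ang and Rnh1 in each library, on axes that start at 0. Bars are 95% counting intervals. Cst3 and Rnase4 are lowest in the control library and in resveratrol library 1, while Ang runs from 4.76 to 9.60 CPM and Rnh1 from 153 to 251 CPM.

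Rnase4 and Ang start at the same promoter and share their first exons, so reads from shared exons could be given to either gene, and the strand setting of the counting is not given in the sources used here. Ang, a ribonuclease gene linked to vessel growth, was at 7.18 CPM in control, 7.09 and 6.52 in the obesity pair, and 4.76 and 9.60 in the resveratrol pair. The ratio of Rnase4 counts to Ang counts was 6.60 in control, 17.7 and 13.3 in obesity, and 12.0 and 15.8 with resveratrol. It was lowest in the control library, which lay outside the range of the 4 others. Rnh1, which encodes the cytosolic inhibitor that binds ribonuclease A proteins, was at 232 CPM in control, 228 and 251 in the obesity pair, and 153 and 190 in the resveratrol pair. Both resveratrol libraries lay below both obesity libraries for Rnh1, as in 16.7% of all tested genes (log2 difference -0.48, SE 0.298, edgeR adjusted p = 0.899).

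The remaining comparison sets resveratrol against vehicle within the fat-rich diet. Cst3 averaged 860 ± 309 CPM in the resveratrol pair against 1012 ± 50.1 CPM in the obesity pair (SD, n = 2 each), a log2 difference of -0.23 (SE 0.498, edgeR adjusted p = 0.95). Rnase4 was at 104 ± 66.6 and 106 ± 27.2 CPM, a log2 difference of -0.02 (SE 0.56, edgeR adjusted p = 1). For both genes the resveratrol libraries lay on either side of the obesity pair, and without resveratrol library 1 the log2 differences were 0.1 and 0.53. Rnase12 had a log2 difference of 5.35 (SE 2.72, edgeR adjusted p = 0.899) that rested on resveratrol library 1. It was -3.38 without that library, and it passed without resveratrol library 2 (6.37, edgeR adjusted p = 0.00442), where 19.5% of all genes passed. Over all alternatives its adjusted p ran from 0.00442 to 1. With only the obesity and resveratrol groups fitted, Rnase12 did not meet the filter on low counts. Rnase10 differed by -0.4 (SE 1, edgeR adjusted p = 0.961) on 21 and 19 counts summed over each pair. The other 6 duct genes had at most 12 counts in any of these 4 libraries, and no difference is given for them. Over all genes 0% passed, 581 had an unadjusted p under 0.05 (1.92% of tested genes higher, 0.428% lower), and DESeq2 called 1.18% of its tested genes and none of the 10.

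The 10 genes lie on 2 chromosomes, where duct genes and widely expressed genes are near neighbours. Gene order was taken from RefSeq on GRCm38.p6, whereas the counts were made on GRCm39, and these neighbours were chosen by position after the values of the 10 genes were seen. On chromosome 2 the order is Cstl1, Cst11, Cstdc1, Cst12, Cst8, Cst13, Cst9, Cstdc2, Cst3 and Cst10. Cst13 and Cst9, which follow Cst8 and are known from testis, were at 1.43 and 0.592 CPM in control and at most at 0.104 CPM elsewhere. Of the genes in that row found in the count table, only Cst3 was present in all 5 libraries. Beyond Cst10, at a count of 0 in all 5, Syndig1 was at 69.9 CPM in resveratrol library 1 and at most at 0.732 CPM elsewhere.

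On chromosome 14 Rnase10, Rnase9, Rnase11 and Rnase12 lie in a row, followed by an olfactory receptor gene, Ang and Rnase4. The next gene, Eddm3b, which encodes an epididymal secretory protein, was at 233 CPM in control, 15.4 CPM in resveratrol library 1 (340 counts) and a count of 0 in the other 3. It shares with Rnase12 its presence in those libraries. Rnase13 lies apart from this row, next to Tppp2, a gene of sperm that was at 3.76 CPM in control and at a count of 0 in the 4 others. Its neighbour on the far side, Arhgef40, was present in all 5 at 67.2 to 180 CPM.

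**Figure D4:**
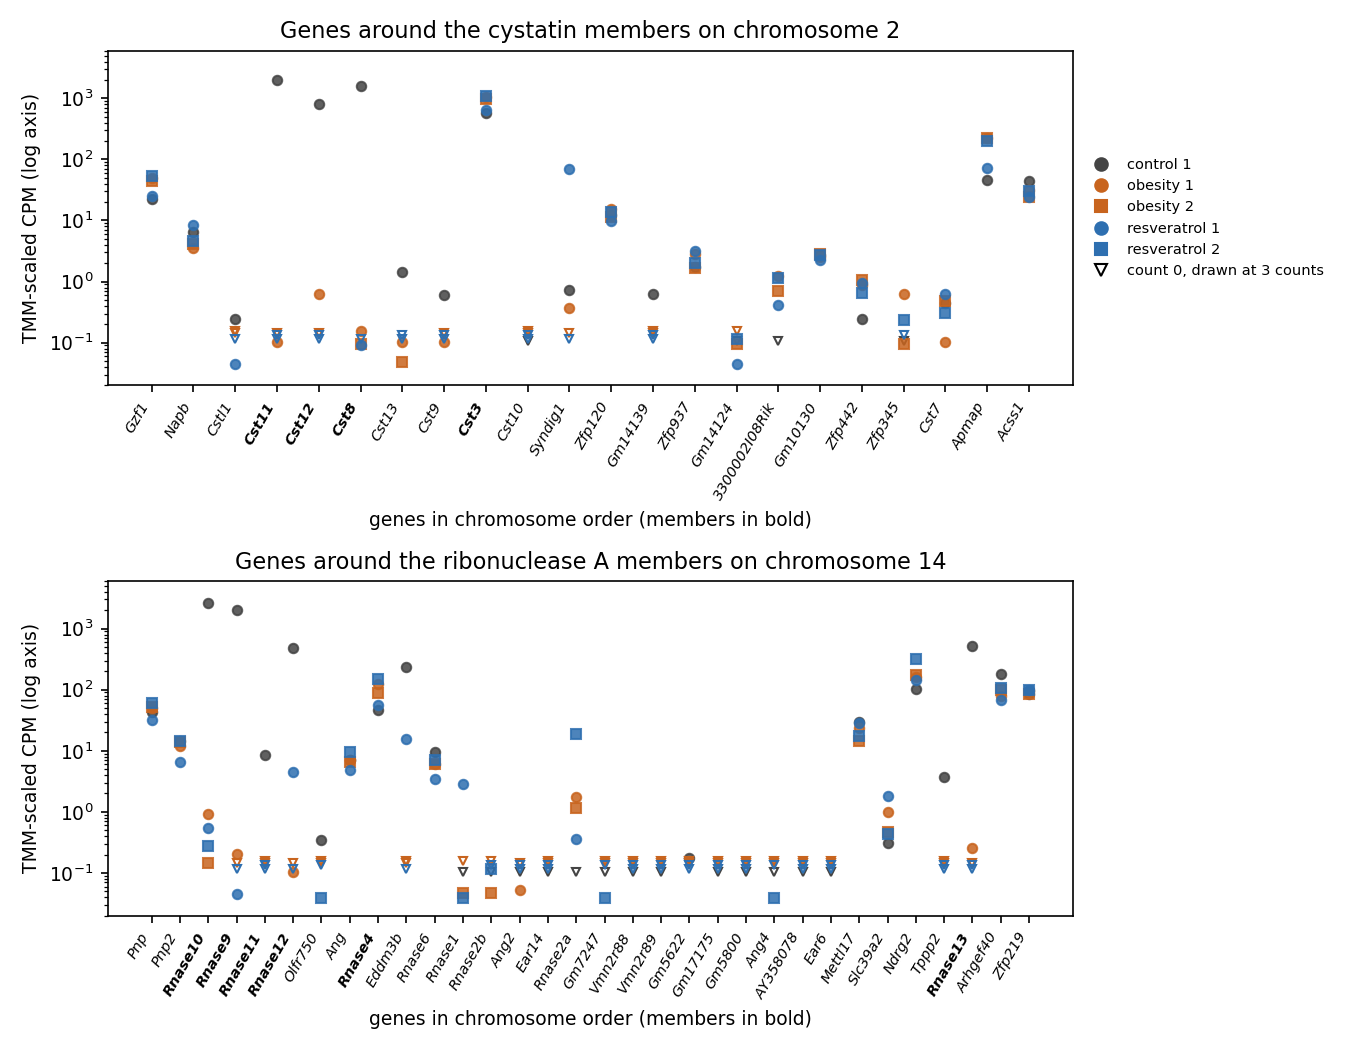
TMM-scaled CPM (log axis) of genes in chromosome order around the cystatins (top) and the ribonucleases (bottom), with the described genes in bold. Open triangles are counts of 0 drawn at the level of 3 counts. Genes high in the control library alone lie near Cst3 and Rnase4, which are present in all 5 libraries.

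Promoters of 9 of the 10 genes were matched in the RefSeq table (GRCm38.p6), each a window of 250 bases before to 50 bases after a start. They are shown for a duct gene and a widely expressed gene of each cluster, as the pair contrasted in these libraries. Letters run 5′ to 3′ on the gene's strand, and capitals mark CpG dinucleotides, a C followed by a G.
Cst8, chr2:148798589-148798888, plus strand: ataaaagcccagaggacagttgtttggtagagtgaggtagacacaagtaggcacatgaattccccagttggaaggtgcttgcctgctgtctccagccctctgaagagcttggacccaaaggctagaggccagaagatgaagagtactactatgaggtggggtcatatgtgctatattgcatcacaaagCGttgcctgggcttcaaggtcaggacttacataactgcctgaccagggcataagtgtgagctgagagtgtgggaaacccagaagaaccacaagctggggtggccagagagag
Cst3, chr2:148875463-148875762, minus strand: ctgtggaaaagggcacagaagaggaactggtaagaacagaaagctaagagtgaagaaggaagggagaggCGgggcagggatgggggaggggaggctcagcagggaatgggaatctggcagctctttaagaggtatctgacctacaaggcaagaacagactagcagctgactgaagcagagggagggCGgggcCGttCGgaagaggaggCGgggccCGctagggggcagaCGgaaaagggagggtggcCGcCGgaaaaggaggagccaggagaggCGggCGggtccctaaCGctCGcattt
Rnase10, chr14:51007501-51007800, plus strand: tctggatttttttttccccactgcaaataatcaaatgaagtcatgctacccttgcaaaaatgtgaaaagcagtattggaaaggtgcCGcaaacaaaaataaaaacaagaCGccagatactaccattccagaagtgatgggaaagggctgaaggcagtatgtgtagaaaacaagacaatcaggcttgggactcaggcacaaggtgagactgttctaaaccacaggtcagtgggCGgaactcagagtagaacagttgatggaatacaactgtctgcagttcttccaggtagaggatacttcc
Rnase4 and Ang, chr14:51090827-51091126, plus strand: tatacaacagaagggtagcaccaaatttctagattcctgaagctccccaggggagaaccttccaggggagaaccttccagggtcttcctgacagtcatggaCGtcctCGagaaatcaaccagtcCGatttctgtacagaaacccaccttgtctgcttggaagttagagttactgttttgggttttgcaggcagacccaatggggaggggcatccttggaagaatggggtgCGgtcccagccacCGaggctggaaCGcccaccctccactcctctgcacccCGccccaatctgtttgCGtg
The Cst8 window holds 1 CpG and the Rnase10 window 3, against 13 for Cst3 and 8 for the window that Rnase4 and Ang share. Over the 7 duct genes matched, windows held 1 to 4 CpG. Of all 32841 windows of that length, 38% held at most 4, 37.9% held at least 13, and the median was 7. A second Rnase4 window, at a further start, held 2. The PEA3 motif of ETS factors (AGGAAG, searched on both strands) was found in the Rnase12, Rnase11, Cst3, Rnase4 and Ang windows, in 1 of 2 Rnase10 windows, and in 35.4% of all. The 2 Rnase10 windows overlap. A match is a match of letters and shows no binding.

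Factors known to act in the duct epithelium were measured in all 5 libraries. Etv4 and Etv5, ETS factors of the initial segment of the epididymis, were at 99.7 and 268 CPM in control, at 1.51 and 1.05 CPM for Etv4 and 18.45 and 20.3 CPM for Etv5 in obesity, and at 8.12 and 2.06 CPM and 32.0 and 17.1 CPM with resveratrol. Both were thus highest in control, and next in resveratrol library 1. Cebpa, a C/EBP factor of adipocytes, had the reverse order, at 40.9 CPM in control, 941 and 1398 in the obesity pair, and 198 and 1403 in the resveratrol pair. Of the 7 regulators, 3 were higher and 4 lower in obesity than in control, with a median log2 difference of -2.30 against -0.10 over all tested genes, and 0 passed.

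Of 17 other cystatin genes listed, 11 were found by symbol and 5 were tested. Cstb, the cytosolic cystatin B, was at 93.8 CPM in control, 253 and 186 in the obesity pair, and 71.9 and 116 in the resveratrol pair. Both resveratrol libraries lay below both obesity libraries, as in 16.7% of all tested genes (log2 difference -1.22, SE 0.379, edgeR adjusted p = 0.899). Cst6, which encodes cystatin M, had 4.98 CPM in control against 0.681 to 1.59 CPM elsewhere. In obesity against control 1 of the 5 was higher and 4 lower, with a median log2 difference of -2.10, and 0 passed. Among the 4, Cst13 (41 counts in control) and Cst9 (17 counts) had at most 2 counts in any other library. They were tested only because of their control level and had to be lower, so nothing is read from the 4 or from the median.

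Of 15 other ribonuclease A genes listed, 14 were found and 5 were tested. Ear2, an eosinophil-associated ribonuclease gene also known from macrophages, had the reverse of the duct pattern. It was at a count of 0 in control, 49.35 and 35.8 CPM in obesity, and 3.22 and 54.1 CPM with resveratrol, at least 407.5-fold higher in obesity than in control (edgeR adjusted p = 0.182). Rnase2a, of the same group, was at a count of 0 in control, 1.72 and 1.14 CPM in obesity, 0.363 CPM in resveratrol library 1 and 18.65 CPM in resveratrol library 2. Ear genes have near-identical copies that can share reads, so their levels are uncertain. A list of 4 eosinophil markers summed to 0.209 CPM in control and to 1.66 to 5.04 CPM in the 4 other libraries. Of these, Ccr3 was at 0.886 and 0.951 CPM in obesity and 0.136 and 0.816 CPM with resveratrol, and Epx had counts in resveratrol library 1 alone (4.49 CPM). A list of 5 macrophage genes summed to 82.5 CPM in control, 1920 and 1760 in the obesity pair, and 273 and 2070 in the resveratrol pair, in step with Ear2 in being lowest in control and resveratrol library 1. Their part in the Ear2 value was not tested. Rnase1, the pancreatic-type ribonuclease gene, had 64 counts (2.90 CPM) in resveratrol library 1 and at most 1 count in each other library. Rnase6, a ribonuclease gene with antibacterial products, had 9.41 CPM in control and 3.45 to 6.99 CPM elsewhere.

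The proteases that cystatins hold were higher in obesity than in control for 10 of 11 genes, with a median log2 difference of 1.96 against -0.10 over all tested genes, and 0 passed in edgeR's test. Ctsb, the lysosomal cathepsin B gene, was at 389 CPM in control, 4918 and 4561 in the obesity pair, and 1026 and 4116 in the resveratrol pair. Ctsk, the collagen-cutting cathepsin K gene, was at 4.70 CPM in control, 269 and 141 in the obesity pair, and 43.7 and 127 in the resveratrol pair (log2 difference of obesity from control 5.44, SE 1.09, edgeR adjusted p = 0.181). Ctsh, an aminopeptidase gene, was the 1 gene lower in obesity, with 124 and 104.5 CPM there against 142 CPM in control. For 6 of the 11, Ctsb, Ctsc, Ctsk, Ctss, Ctsz and Lgmn, the legumain gene, the control library was the lowest and resveratrol library 1 the next. The other 5 differed. Ctsh, Ctsl and Ctso were lowest in resveratrol library 1, Ctsw was lowest in obesity library 1, and Ctsf was lowest in control but higher in resveratrol library 1 (76.5 CPM) than in both obesity libraries (67.3 and 68.3 CPM). Against obesity, resveratrol was lower for 9 of 11, with a median log2 difference of -0.88 against 0.05 over all genes, and 0 passed. The macrophage gene sum was lowest in control and next in resveratrol library 1, as for those 6, and its part in the protease levels was not tested.

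**Figure D5:**
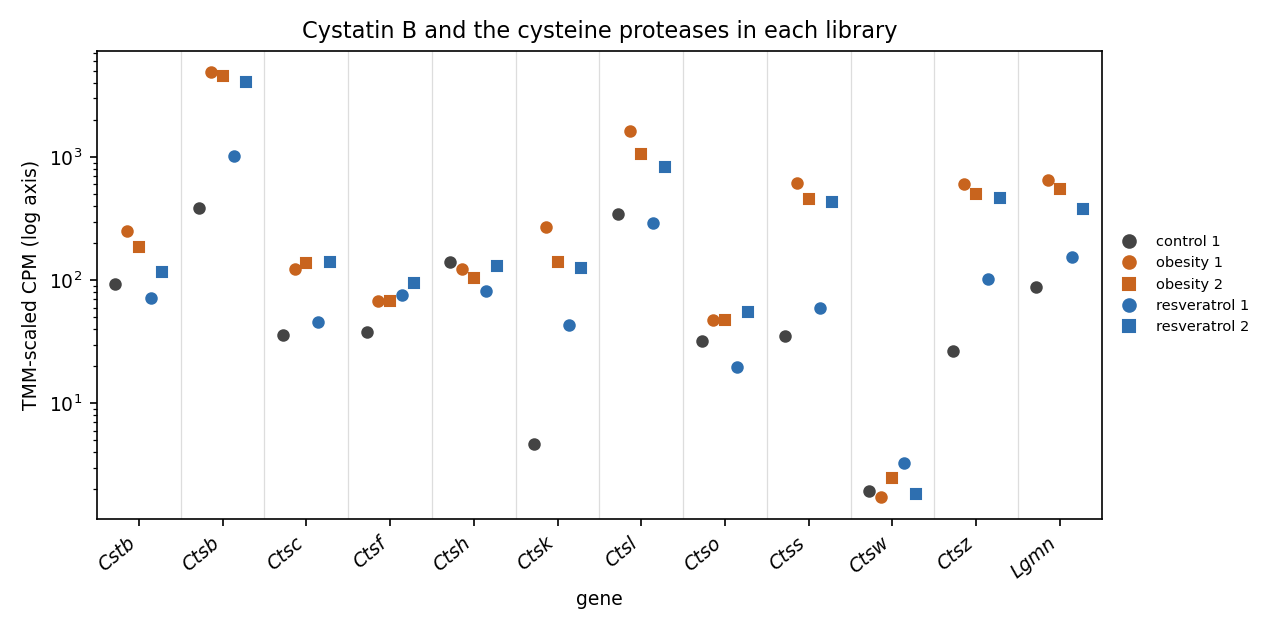
TMM-scaled CPM (log axis) of Cstb and the 11 cysteine protease genes in each library. Circles and squares are replicates 1 and 2. Ctsb runs from 389 CPM in the control library to 4918 CPM in obesity library 1, and Ctsh stays between 82.4 and 142 CPM.

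Genes most like 3 of the 10 in level and pattern were found by the Euclidean distance of log2(CPM + 0.1) over the 5 libraries. Nearest to Cst8 were Epp13, Teddm1a and Lypd8, at distances of 1.18, 1.28 and 1.29. Epp13, an epididymal protein gene, reached 1890 CPM in control against at most 0.208 CPM elsewhere. Nearest to Cst3 were Lamp1 and Actg1 (0.622 and 0.679). Lamp1, a lysosomal membrane protein gene, was at 765 CPM in control, 956 and 917 in the obesity pair, and 496 and 915 in the resveratrol pair. Nearest to Rnase4 were Ly6c1, Vamp3 and Col16a1 (0.484, 0.536 and 0.561). Ly6c1, a surface protein gene of endothelial and myeloid cells, was at 48.5 CPM in control, 142 and 97.2 in the obesity pair, and 44.1 and 133 in the resveratrol pair.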

How the data were processed

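Poly-A RNA of 5 visceral fat libraries (1 control, 2 obesity, 2 resveratrol) was sequenced as paired reads of 150 bases. The authors deposited raw counts per gene, made with featureCounts on GRCm39 after FastQC, per the submitters' processing notes. For aligner, annotation release and strand setting: not given in the sources used here. Library totals were 19540961 to 27026597 counts, and precision was taken from exact 95% Poisson intervals. All 5 libraries were fitted with edgeR 4.0.16 (R 4.3.3; TMM, filterByExpr with a minimum count of 10 and total of 15, robust quasi-likelihood test) and p-values were adjusted by Benjamini-Hochberg over 24779 genes at 0.05. The steps were tested on simulated data. Alternatives were other scalings and filters, DESeq2 1.42.0, limma-voom (limma 3.58.1), a replicate block and left-out libraries. No difference is given where no library compared had over 15 counts. All 10 genes are named, related genes only from listed families above 1 CPM in a library, and the 3 genes nearest to Cst8, Cst3 and Rnase4 by distance. Some genes of these lists are not reported here. The genes and lists were chosen with earlier results of these data known. Exon lengths came from GENCODE M21 and promoters from RefSeq, both on GRCm38. Python 3.11.15 with matplotlib 3.10.9 made the figures.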

Additional observations from a re-analysis of the deposited data

How the results depend on the processing

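Calls in the comparisons with control changed with the filter, the tool and the libraries kept, and all rest on 1 control library. For obesity against control, where 0 genes passed, 2575 of 43522 passed with no filter on low counts (4 of the 10 described genes). With only the groups compared 9269 of 23511 passed (9 of 10). DESeq2 called 4431, or 20.2% of the genes it tested (6 of 10). The fit with no filter tested the same 43522 genes in each comparison. Leaving out 1 library at a time gave 0 to 9227 genes and 0 to 8 of the 10. The 0 came without either obesity library, the 9227 without resveratrol library 1, and 9094 (8 of the 10) without resveratrol library 2. For resveratrol against control, 1671 genes passed with no filter (4 of 10), 3031 with DESeq2 (7 of 10) and 80 with limma-voom (2 of 10), and leaving out 1 library gave 0 to 7470 genes and 0 to 8 of the 10. For resveratrol against obesity, 25 genes passed with no filter and 208 with DESeq2. Leaving out 1 library gave 0 to 4761 genes and 0 to 1 of the 10. Without the control library and resveratrol library 1 together, an alternative chosen after seeing the data, 66 passed. The cause was not tested.

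Log2 differences of resveratrol from obesity changed sign in 9 cases. Over single left-out libraries, Cst3 ran from -0.65 to 0.1, Rnase4 from -0.89 to 0.53 (0.27 without obesity library 1), Rnase10 from -1.2 to 1.49 (0.05 without resveratrol library 2) and Rnase12 from -3.38 to 8.8. Without the control library and resveratrol library 1 together, Cst3 was at 0.1 and Rnase4 at 0.52, and limma-voom gave 0.03 for Rnase10. Over single left-out libraries, resveratrol against control ran from 0.18 to 0.93 for Cst3 and from 0.29 to 1.7 for Rnase4. No log2 difference from control changed sign under any alternative run. For the 8 duct genes the counts fixed the sign, as each of these fits kept the same control library. Scaling by total counts moved the median of all genes by -0.12 in obesity against control.

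With the replicate number as a block, 0 genes and 0 of the 10 passed in each comparison. Same-numbered obesity and resveratrol libraries had deviations correlated at 0.295 across 24779 genes, but with 2 pairs the numbers are not shown to pair the libraries. Depth limits the duct genes outside the control library, where most held 0 to 12 counts.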
